A study of Homo sapiens with 6 samples.

Results

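The gene *LIPG*, which encodes endothelial lipase, was followed here together with the lipase genes *LPL*, *LIPA*, *LIPE*, *LIPC*, *PNPLA2* and *MGLL*. These 7 of the 60651 genes in the tables were matched by symbol. *LIPG* was chosen by its fall in the libraries labelled Tet, the same comparison that is described here, so its own values are a description and carry no test. The other 6 lipases were picked as enzymes of the same kind.

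Total RNA was sequenced from 6 cultures of a human neuroblastoma cell line, a tumour line of the developing sympathetic nervous system. In 3 libraries the titles name ethanol (EtOH), the vehicle, and in 3 they name tetracycline (Tet), given for 5 days to switch on a transgene. The labels do not name one cell model: the titles and the sample names inside all 6 tables give IMR-5/75, a *MYCN*-amplified line, and a tag speaks of a knockdown, whereas the protocol text describes single clones of SK-N-SH with tetracycline-inducible *MYCN* expression. The study used an SK-N-AS model of *MYCN* expression and IMR-5/75 cells with an inducible shRNA against *MYCN*, so the titles, sample names and tag point to the latter and the protocol text does not. All 6 libraries share the line and its integrated constructs, and the labels record no untransfected control, so an effect of tetracycline itself cannot be told apart from that of the transgene.

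The RNA of *MYCN*, the gene the system was built to change, did not follow the labels. Levels are in CPM, counts per 1000000 counts of the library, with the library total scaled by the TMM method. The level of *MYCN* was 158, 256 and 156 CPM in the EtOH libraries, in replicate order, and 197, 200 and 145 CPM in the Tet libraries. The groups overlapped, with a log2 fold change of -0.07 ± 0.23 (SE) and an adjusted p of 0.956 in edgeR's quasi-likelihood test. For its cells with the inducible shRNA, the study reports a knockdown of MYCN checked on protein by western blot. It also reports that circular RNAs rose after induction in those cells. RNA libraries hold no protein levels, so a change of MYCN protein was not tested here. The sample names inside the tables write the 3 libraries titled Tet with plusTet and the 3 titled EtOH with -Tet, which sorts them as the titles do. Every direction below compares libraries labelled Tet with libraries labelled EtOH, and none rests on a measured change of *MYCN* RNA. Library totals ran from 27933212 to 40497909 counts, so 3 counts corresponded to between 0.0741 and 0.107 CPM before TMM scaling. The largest component of variation, 44.7% of the variance, did not separate the groups and was spanned by EtOH 1 and EtOH 2. The second component, 25.7% of the variance, did separate them, with EtOH from -39.1 to -34.7 and Tet from 26.4 to 48.1.

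Lipases cut fatty acids from glycerol or sterol esters. Endothelial lipase, lipoprotein lipase (*LPL*) and hepatic lipase (*LIPC*) are related secreted enzymes that act on lipoproteins at the cell surface, endothelial lipase mainly on phospholipids and lipoprotein lipase on triglycerides. Lysosomal acid lipase (*LIPA*) breaks down the cholesteryl esters and triglycerides that arrive with endocytosed lipoproteins, and in lipid droplets adipose triglyceride lipase (*PNPLA2*), hormone-sensitive lipase (*LIPE*) and monoglyceride lipase (*MGLL*) remove the acyl chains one after another. In nervous tissue monoglyceride lipase is best known for ending the signal of the endocannabinoid 2-arachidonoylglycerol.

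*LIPG* (ENSG00000101670.12) is read from the plus strand of chromosome 18, between 49560699 and 49599185 on GRCh38. Its promoter is shown because *LIPG* is the gene with the largest difference among these lipases. The 250 bases before the RefSeq start are chr18:49561807-49562056 (GRCh38.p14, plus strand, RefSeq), printed in lower case with the CCAAT box in capitals.
LIPG promoter: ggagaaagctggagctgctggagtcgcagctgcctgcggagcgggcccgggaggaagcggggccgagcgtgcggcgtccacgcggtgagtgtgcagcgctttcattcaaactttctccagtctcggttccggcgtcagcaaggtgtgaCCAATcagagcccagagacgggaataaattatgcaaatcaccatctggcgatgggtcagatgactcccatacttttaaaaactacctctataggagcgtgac
The first 84 bases of this window, up to 49561890, lie in a coding exon of a longer annotated transcript of the gene, and none lies in an untranslated region. The CCAAT box, a common core promoter element, begins at position -102 from the start, and 32.0% of 35116 promoter windows of this length hold one on either strand. The window held no GC box (GGGCGG, found in 42.6% of windows). It also held no E-box of the form CACGTG (letters that MYC family proteins bind, found in 6.34%). Other forms of the E-box were not searched, so their absence is not shown. Of 8 promoter windows of 5 lipases, 5 held a CCAAT box, 4 a GC box and 0 the E-box form CACGTG. *LPL* and *MGLL* had no entry. All motifs were searched on both strands, and a match describes letters, not a site in use.

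*LIPG* was low in every library labelled Tet. EtOH replicates 1 to 3 measured 13.8, 17.0 and 15.7 CPM, and Tet replicates 1 to 3 measured 2.41, 2.37 and 2.92 CPM. The lowest EtOH library was above the highest Tet library by a wide margin. These values rest on 495, 472 and 476 counts in the EtOH libraries and 68, 84 and 116 counts in the Tet libraries, far above the level of 3 counts. Means were 15.5 ± 1.62 CPM in EtOH and 2.57 ± 0.306 CPM in Tet (SD, n = 3 each), 6.05-fold lower in Tet, with a log2 fold change of -2.59 ± 0.22 (SE).

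*LIPG* had the 14th lowest log2 fold change of the 22443 genes that passed the filter on low counts. Where the mean reached 5 CPM and groups did not overlap, the called genes nearest to it in size of fall were *UNC5D*, a netrin receptor, at -2.37, and *PART1*, a long non-coding RNA, at -2.18. Because *LIPG* was chosen for its fall, this place in the order describes the choice. Leaving out any single library gave log2 fold changes between -2.69 and -2.52, a range that describes the same chosen values.

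Among the lipases tested beside *LIPG*, *LPL* alone passed the threshold, and it was lower in Tet. Its level was 30.0, 28.3 and 30.6 CPM in EtOH and 11.3, 13.8 and 11.5 CPM in Tet, in replicate order. The groups did not overlap, and within each group the libraries lay close together. Means were 29.6 ± 1.18 and 12.2 ± 1.41 CPM (SD, n = 3 each), 2.42-fold lower in Tet. The log2 fold change of *LPL* (ENSG00000175445.17) was -1.28 ± 0.17 (SE), with an adjusted p of 0.0368 in edgeR's quasi-likelihood test over all genes tested. The call was lost when EtOH 1, EtOH 3, Tet 1, Tet 2 or Tet 3 was left out (adjusted p from 0.132 to 0.297), while the log2 fold change stayed between -1.37 and -1.23. *LPL* is encoded on chromosome 8 (plus strand, 19901717 to 19967259), and no exon base is shared with another gene.

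Of all genes tested, 53 (0.236%) passed an adjusted p of 0.05, 33 of them higher in Tet (0.147%) and 20 lower (0.0891%). Against that background, 1 of the 5 lipases tested beside *LIPG* was called lower and 0 were called higher, and with so few genes the share is only a description. Groups did not overlap, with Tet above, for 2065 genes (9.2%) and 0 of these 5 lipases. Groups did not overlap, with Tet below, for 1859 genes (8.28%). Of the 5 lipases, this held for *LPL* alone.

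Hepatic lipase was barely present. *LIPC* (ENSG00000166035.11; chromosome 15, 58410569 to 58569844, plus strand) had 0, 10 and 1 counts in the EtOH libraries and 0, 0 and 1 in the Tet libraries. It did not pass the filter and was not tested. EtOH 2 gave 10 of its 12 counts, and in the other 5 libraries it was under the level of 3 counts. A change of *LIPC* was therefore not detectable at this depth.

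Lysosomal acid lipase was the most abundant of the 7 and overlapped between groups. *LIPA* (ENSG00000107798.18; chromosome 10, 89213569 to 89414557, minus strand) shares 6.01% of its exon bases with other genes. Its level was 66.8, 48.8 and 68.4 CPM in EtOH and 51.3, 39.7 and 43.4 CPM in Tet. EtOH 2 was the low library of its group and fell below Tet 1. Means were 61.3 ± 10.9 and 44.8 ± 5.90 CPM (SD, n = 3 each). *LIPA* had a log2 fold change of -0.45 ± 0.19 (SE), with an unadjusted p of 0.0384 and an adjusted p of 0.428 in edgeR's test, so that *LIPA* did not pass, and 10.8% of all genes tested had an unadjusted p under 0.05.

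The enzymes of lipid droplets were close to the lower limit of these libraries. *PNPLA2* (ENSG00000177666.17; chromosome 11, 818914 to 825573, plus strand) measured 0.614, 0.216 and 0.0661 CPM in EtOH and 0.425, 0.226 and 1.26 CPM in Tet, from 22, 6 and 2 counts and 12, 8 and 50 counts. Tet 3 stood above all other libraries, while Tet 1 and Tet 2 lay within the range of the EtOH libraries. Its log2 fold change of 1.07 ± 0.84 (SE) had an adjusted p of 0.731, and without single libraries it ran from 0.08 to 2.14.

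*LIPE* (ENSG00000079435.10; chromosome 19, 42401514 to 42427388, minus strand) measured 0.837, 0 and 0.463 CPM in EtOH and 0.248, 0.113 and 0.956 CPM in Tet. Its counts were 30, 0 and 14 in EtOH and 7, 4 and 38 in Tet, so each group spanned most of the range of the other. The log2 fold change was 0.02 ± 1.07 (SE), with an adjusted p of 0.998 and no stable direction across settings.

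*MGLL* (ENSG00000074416.14; chromosome 3, 127689062 to 128052190, minus strand) measured 0.67, 0.144 and 0.397 CPM in EtOH and 0.603, 0.226 and 0.302 CPM in Tet, from 4 to 24 counts in a library. Replicate 1 was highest and replicate 2 lowest in both groups. The log2 fold change of *MGLL* was -0.14 ± 0.65 (SE), with an adjusted p of 0.973. The SEs of *PNPLA2*, *LIPE* and *MGLL* ran from 0.65 to 1.07, against 0.17 for *LPL*, so a p that misses the threshold here does not show that these genes stayed level.

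**Figure D1:**
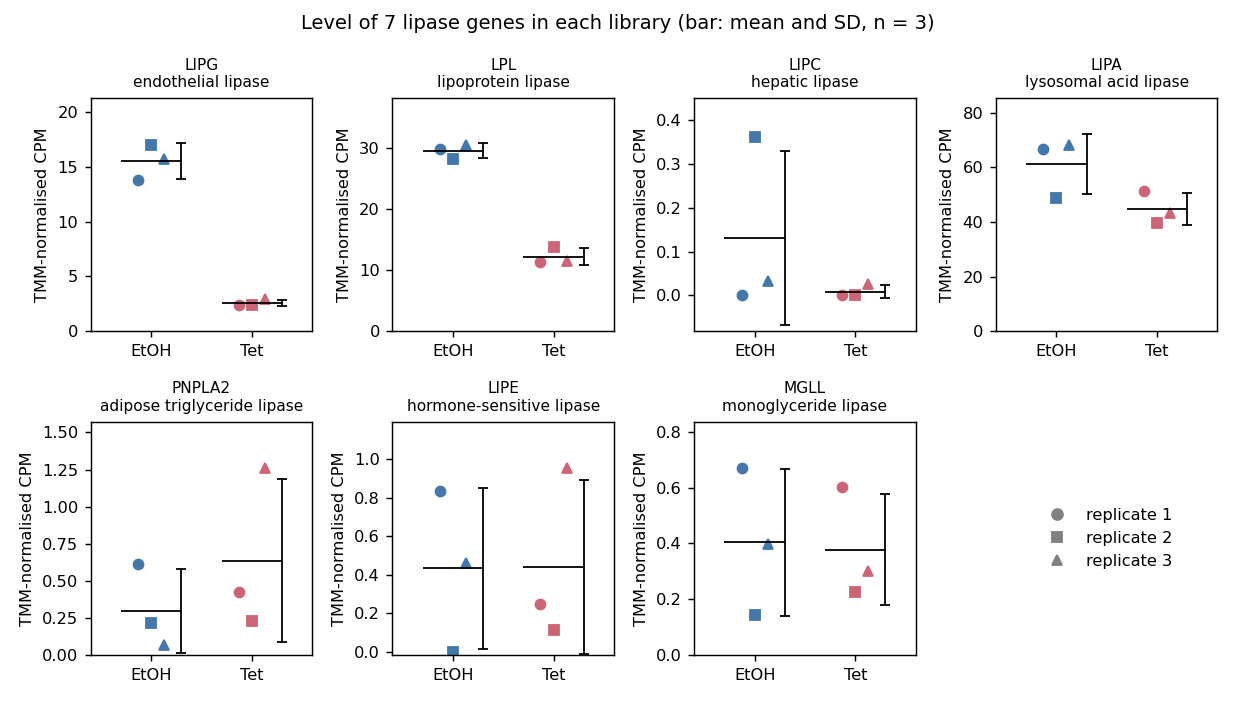
Level of each lipase in TMM-normalised CPM (linear axis, a separate scale for each gene) in the 3 libraries labelled EtOH (blue) and the 3 labelled Tet (red), with symbols for the replicate number and a bar for the mean and SD. *LIPG* and *LPL* are separated between groups, *LIPA* overlaps, and *PNPLA2*, *LIPE*, *MGLL* and *LIPC* lie under 1.3 CPM with wide spread.

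*PNPLA2* and *LIPE* are GC-rich, and GC-rich genes differed between libraries of the same group. The exons of *PNPLA2* are 64.6% and those of *LIPE* 61.3% GC, against 43.2% for *LPL*, 46.1% for *LIPG* and 42.4% for *LIPA*. Among the 5611 genes tested with 51.0% GC or more, the median deviation from a gene's mean log2 CPM was 0.24, -0.34 and 0.03 in EtOH replicates 1 to 3 and -0.10, -0.18 and 0.42 in Tet replicates 1 to 3. The highest value, in Tet 3, fell in the library where *PNPLA2* and *LIPE* were highest, and the lowest, in EtOH 2, in the library where *LIPE* had 0 counts. *PNPLA2* did not follow this order throughout, since it was lowest in EtOH 3 (0.0661 CPM), where the median deviation was 0.03. The exons of *MGLL* are 53.6% GC, also above 51.0%. *MGLL* was lowest in EtOH 2 (0.144 CPM), but highest in EtOH 1 (0.67 CPM) and only 0.302 CPM in Tet 3. With a GC correction the log2 fold change of *PNPLA2* was 0.44 and that of *LIPE* -0.44, while *LPL* stayed at -1.27 with an adjusted p of 0.0258. The part of GC content in these values was not tested beyond this correction.

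**Figure D2:**
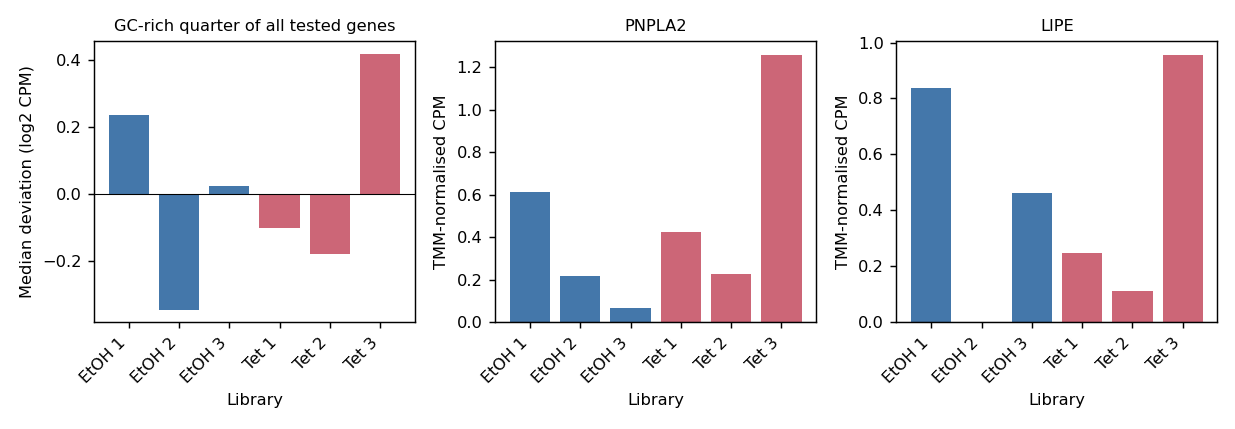
Left, the median deviation of the 5611 GC-rich genes from their mean log2 CPM in each library. Middle and right, the TMM-normalised CPM of *PNPLA2* and *LIPE* in the same libraries (EtOH blue, Tet red). Tet 3 is highest in all 3 panels, at 0.42, 1.26 CPM and 0.956 CPM.

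Between genes, levels were compared per length (TPM, counts per exon base), scaled to 1000000 in each library, since long genes collect more counts. *LIPG* has 13089 exon bases in the tables. In EtOH the means were 34.8 TPM for *LIPA*, 20.0 for *LPL* and 3.32 for *LIPG*, and the 3 genes kept this order with no overlap in 3 of 3 libraries. *LIPE* (0.227 TPM), *PNPLA2* (0.215), *MGLL* (0.0932) and *LIPC* (0.0772) followed, and each overlapped its neighbour in the order. In Tet, *LIPA* had 24.4 TPM, *LPL* 7.88 and *LIPG* 0.519. *LIPG* was then within the spread of *PNPLA2* (0.425 TPM) and above it in 2 of 3 libraries. This overlap depends on the length scaling, since *PNPLA2* has 3831 exon bases. In CPM, *LIPG* in the Tet libraries (2.37 to 2.92) lay above *PNPLA2* (0.226 to 1.26) without overlap.

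The TPM of the 7 lipases summed to 60.3, 54.0 and 61.8 in EtOH and 38.4, 32.0 and 30.3 in Tet, with means of 58.7 ± 4.16 and 33.6 ± 4.29 (SD, n = 3 each). *LIPG* and *LPL*, whose difference is already described, make up part of this sum, so it has no test. The secreted lipases *LIPC*, *LIPG* and *LPL* went from a summed 23.4 ± 0.951 TPM in EtOH to 8.40 ± 1.15 TPM in Tet. The intracellular ones, nearly all *LIPA*, had 35.3 ± 4.89 and 25.2 ± 4.33 TPM. *LIPG* made up 4.72%, 7.12% and 5.29% of the lipase sum in EtOH and 1.35%, 1.54% and 1.80% in Tet. *LIPA* made up 54.6% to 61.5% in EtOH and 69.1% to 76.9% in Tet. This larger share came with a lower mean level of *LIPA* itself (34.8 TPM in EtOH and 24.4 TPM in Tet) and larger differences of *LPL* and *LIPG*.

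**Figure D3:**
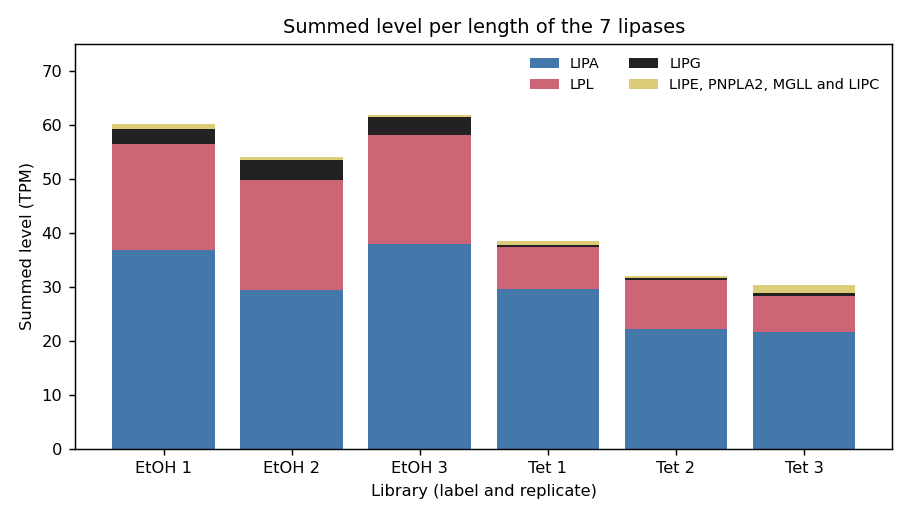
Summed level of the 7 lipases per length (TPM, linear axis from 0) in each library, stacked by gene. The bars reach 54.0 to 61.8 TPM in EtOH and 30.3 to 38.4 TPM in Tet. *LIPG* (black) and *LPL* (red) are thinner in the Tet libraries.

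Genes that work with these enzymes were read from 6 lists: relatives by sequence, partners of the secreted lipases, lipid droplet proteins, lysosomal lipid breakdown, 2-arachidonoylglycerol turnover and regulators of lipase genes. Of 127 genes listed, 81 passed the filter, and 1 was called (1.23%, against 0.236% of all genes tested). An unadjusted p under 0.05 was found for 8 of the 81 (9.88%, against 10.8% of all genes tested), 5 of them among the partners of the secreted lipases. Groups did not overlap for 17 (21.0%, against 17.5%). The last 2 shares are near the background and are no result about the lists, and the first rests on 1 gene.

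The one gene called was *CNR1* (ENSG00000118432.12; chromosome 6, 88139864 to 88166359), the cannabinoid receptor that 2-arachidonoylglycerol activates, and it rose. *CNR1* measured 41.3, 49.8 and 41.8 CPM in EtOH and 144, 195 and 111 CPM in Tet. Every Tet library was above every EtOH library, and the spread was larger in Tet. Means were 44.3 ± 4.79 and 150.2 ± 42.7 CPM (SD, n = 3 each), 3.39-fold higher in Tet, with a log2 fold change of 1.76 ± 0.22 (SE) and an adjusted p of 0.0326 in edgeR's test. Like that of *LPL*, the call of *CNR1* held without EtOH 2 and was lost without any one of the other 5 libraries (adjusted p up to 0.229), with log2 fold changes from 1.53 to 1.94.

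The list of 2-arachidonoylglycerol turnover had 14 of 17 genes tested, 1 called higher and 0 lower, and a median log2 fold change of 0.13, beside -0.01 over all genes tested. *PLCB1*, a phospholipase C that feeds the synthesis of 2-arachidonoylglycerol, measured 138, 145 and 142 CPM in EtOH and 228, 270 and 228 CPM in Tet, without overlap. Its log2 fold change of 0.77 ± 0.14 (SE) had an adjusted p of 0.0812 in edgeR's test and passed in 4 of 14 other settings. *FABP3*, an intracellular carrier of fatty acids, was at -0.67 with an adjusted p of 0.779. *ABHD6* and *ABHD12*, which hydrolyse the same lipid as *MGLL*, measured 4.79 and 2.67 CPM on average in EtOH, above the 0.403 CPM of *MGLL*, and had adjusted p of 0.889 and 0.817.

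Of the partners of the secreted lipases, 15 of 24 were tested, 0 were called in edgeR's test and 5 had an unadjusted p under 0.05 (beside 10.8% of all genes tested), with a median log2 fold change of -0.01. *LMF2*, a relative of the factor that matures *LPL* in the endoplasmic reticulum, measured 0.195, 0.325 and 0.0331 CPM in EtOH and 0.709, 0.592 and 1.11 CPM in Tet. Its groups did not overlap, at 2.12 on the log2 scale, but its adjusted p was 0.287. *SDC1*, a heparan sulphate proteoglycan that can bind lipases at the cell surface, was at -1.22 (adjusted p = 0.426). *ANGPTL4*, an inhibitor of *LPL*, was at 1.07 (adjusted p = 0.707), and at -0.04 without Tet 3. *LRP1* and *LRP8*, receptors of the lipoprotein receptor family, were at 0.98 (adjusted p = 0.427) and -0.67 (adjusted p = 0.373). Tet 3 stood out for *LRP1* (5.03, 4.85 and 12.8 CPM in Tet) and EtOH 2 for *LRP8* (127, 232 and 131 CPM in EtOH). Over 14 other settings *LRP1* ran from 0.37 to 1.22 and *LRP8* from -0.85 to -0.33. *PCSK5*, a protease that cuts endothelial lipase, was at -0.59 (adjusted p = 0.397). *GPIHBP1*, which anchors *LPL* to capillary walls, had 0 counts in every library.

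The relatives by sequence had 8 of 24 genes tested and 0 called, with 0 at an unadjusted p under 0.05 and a median of -0.08. The largest differences were those of *PNPLA7* (0.79), *PNPLA6* (0.72) and *PNPLA3* (-0.43), with adjusted p of 0.835, 0.823 and 0.591 in edgeR's test. Without Tet 3, *PNPLA6* was at -0.36. *PNPLA3*, the relative nearest to *PNPLA2* in function, was at 6.24 ± 1.33 CPM in EtOH and 4.63 ± 0.397 CPM in Tet (SD, n = 3 each), and so more abundant than *PNPLA2*.

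For lipid droplets, 11 of 22 genes were tested and 0 called, again with 0 at an unadjusted p under 0.05, and the median was -0.12. *PLIN5*, a coat protein of droplets, was at -0.67, *FITM2*, which helps droplets to bud, at -0.63, and *BSCL2* (seipin) at 0.41, with adjusted p of 0.734, 0.557 and 0.829 in edgeR's test. Without Tet 3, *BSCL2* was at -0.04. *ABHD5*, the protein that activates *PNPLA2*, was at 90.7 ± 35.2 CPM in EtOH and 82.4 ± 23.2 CPM in Tet (SD, n = 3 each), an adjusted p of 0.929, in the same libraries where *PNPLA2* itself had 2 to 50 counts.

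For lysosomal lipid breakdown, 17 of 21 genes were tested and 0 called, with 1 at an unadjusted p under 0.05 and a median of 0.04. That gene was *MITF*, a transcription factor related to the main regulator of lysosomal genes, at 27.4 ± 3.07 CPM in EtOH and 18.0 ± 0.653 CPM in Tet (SD, n = 3 each), a log2 fold change of -0.60 with an adjusted p of 0.211. *MCOLN1*, a lysosomal calcium channel, was at 0.59 and *NPC2*, which carries cholesterol inside lysosomes, at -0.50 (adjusted p of 0.829 and 0.703), and *MCOLN1* was at -0.54 without Tet 3, which gave 63 of its counts. Of the regulators of lipase genes, 16 of 20 were tested and 0 called, with 0 at an unadjusted p under 0.05 and a median of 0.21. *RXRA* and *NR1H2*, nuclear receptors of fatty acid and sterol signals, were at 0.77 and 0.76 and *CEBPB* at 0.68, with adjusted p of 0.552, 0.820 and 0.703. *NR1H2* was at -0.17 without Tet 3, and *CEBPB* at 0.08 with the GC correction. In the 2 groups of libraries *PPARG*, a known activator of *LPL* in fat cells, measured 19.1 ± 0.940 and 13.5 ± 3.92 CPM (SD, n = 3 each; adjusted p = 0.490).

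**Figure D4:**
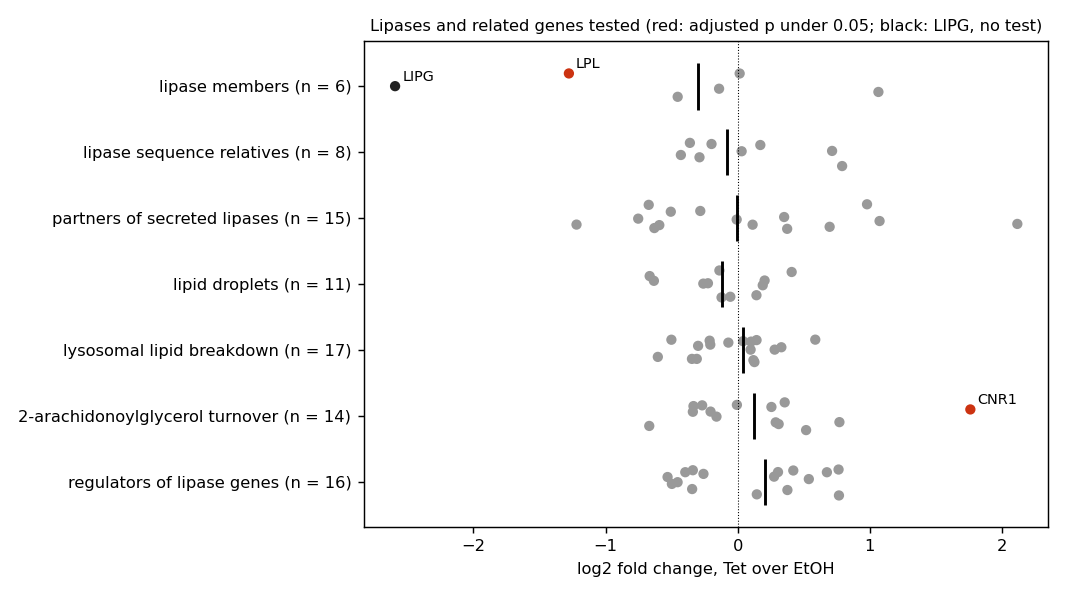
Log2 fold change, Tet over EtOH, of each tested lipase and related gene, one row for each list with the number tested, and a black bar at the median. *LPL* and *CNR1* (red) passed an adjusted p of 0.05, *LIPG* (black) has no test, and the related lists have medians from -0.12 to 0.21.

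The chromosomal surroundings of *LIPG* were read next. Within 500 kb lie 30 other genes, of which 17 were tested and 0 called in edgeR's test. Their log2 fold changes ran from -1.55 to 1.32 with a median of -0.03, and 9 of 17 were below 0. Groups did not overlap for 3 of the 17, beside 17.5% of all genes tested. The protein-coding neighbour *DYM*, needed for the organisation of the Golgi, was at 171.6 ± 11.9 CPM in EtOH and 143.6 ± 4.29 CPM in Tet (SD, n = 3 each), without overlap and with an adjusted p of 0.556. *ACAA2*, an enzyme of mitochondrial fatty acid oxidation, was at 105.5 ± 4.40 and 103.3 ± 7.72 CPM, a log2 fold change of -0.03 (adjusted p = 0.972), and *MYO5B*, a myosin motor, at 0.23 (adjusted p = 0.706). An unadjusted p under 0.05 in edgeR's test was found for 3 of the 17, beside 10.8% of all genes tested. They were *C18orf32* (0.51), ENSG00000265496 (-1.55) and *SNORD58B* (-0.79), with adjusted p of 0.362, 0.426 and 0.428. Each of these 3 shares exon bases with another gene (16.0%, 19.8% and 100% of its bases), *C18orf32* with the readthrough gene *RPL17-C18orf32*, so their counts are uncertain.

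**Figure D5:**
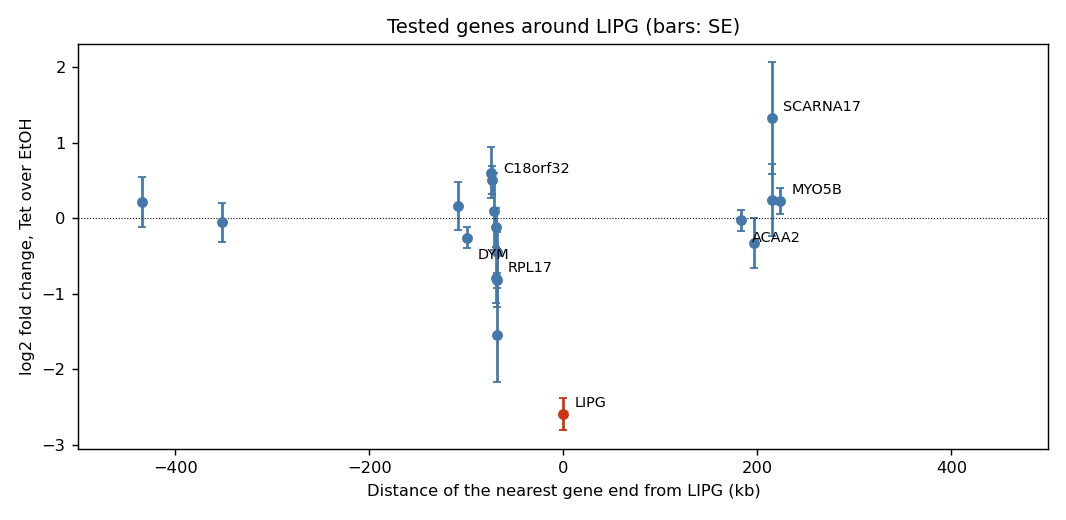
Log2 fold change with SE, Tet over EtOH, of *LIPG* (red) and the 17 tested genes within 500 kb, against the distance of the nearest gene end from *LIPG* in kb. *LIPG* at -2.59 lies below every neighbour, the lowest of which is at -1.55 with an SE of 0.63.

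The genes whose profile was most like that of *LIPG* were found over the 6 libraries among 10088 genes with a mean of at least 5 CPM, by the root mean square difference of centred log2 CPM. They were *PART1* (0.26), *GABRA5*, a subunit of the GABA-A receptor (0.32), *SLITRK5*, a neuronal transmembrane protein (0.38), the transcript ENSG00000234361 (0.41) and *UNC5D* (0.44). *PART1* measured 11.1, 10.4 and 12.7 CPM in EtOH and 2.41, 1.97 and 3.17 CPM in Tet, nearly the levels of *LIPG*. *GABRA5* measured 16.2, 22.8 and 17.0 CPM in EtOH and 4.61, 4.54 and 3.55 CPM in Tet, with EtOH 2 highest in its group as for *LIPG*. The 5 genes lie on chromosomes 5, 15, 13, 6 and 8, none near *LIPG*. *LPL* was not among them. Because *LIPG* was chosen for its fall, this search favours genes with large falls. With *LIPG*, which has no test, set aside, *UNC5D*, *PART1*, *GABRA5* and ENSG00000234361 also fell most among called genes of at least 5 CPM with groups apart.

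Markers of the cell types in which these lipases are best known were near 0, except *PPARG* in the adipocyte list. Of 8 endothelial markers 0 passed the filter, their summed level was 0.161 to 0.472 TPM in EtOH and 0.273 to 0.338 TPM in Tet, and *VWF* and *EMCN* had no counts. The 7 adipocyte markers summed to 11.3 to 12.2 TPM in EtOH and 5.83 to 11.0 TPM in Tet, nearly all from *PPARG*, with *ADIPOQ*, *CIDEA* and *FABP4* at 0. The 8 macrophage markers summed to 0.873 to 1.31 TPM in EtOH and 0.935 to 2.18 TPM in Tet, with 3 at 0, and the 7 hepatocyte markers to 0.355 to 1.02 and 0.644 to 0.876 TPM, also with 3 at 0. Noradrenergic neuroblastoma markers were abundant, at 584 to 614 TPM in EtOH and 658 to 772 TPM in Tet (8 of 10 tested), although *TH* had at most 1 count and *DBH* at most 18. Mesenchymal markers summed to 27.3 to 58.8 and 19.9 to 29.2 TPM, with *COL1A2* at 0, and none of the markers of any type was called. *LIPG* and *LPL* were thus measured in libraries where the defining markers of endothelium, fat, macrophages and liver were at or near 0. Fewer cells expressing a gene and less RNA per cell cannot be told apart in bulk libraries.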

How the data were processed

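The authors deposited a table of estimated counts for each library, made per the file headers by trimming reads, aligning them, keeping unique alignments and counting exons with featureCounts 1.6.4. Read pairs over several genes were divided evenly and strand was not used, so overlapping and antisense genes share counts. The submitters' processing notes name STAR 2.7.1a, featureCounts 1.5.1 and GRCh38. Libraries were depleted of ribosomal RNA. Each table held 60651 genes, 60481 with a symbol, and 92 spike-in sequences, all at 0 and left out.

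Values were rounded, since the edgeR test was planned for whole counts. Genes were kept with filterByExpr, scaled by TMM and tested with edgeR 4.0.16 (quasi-likelihood, R 4.3.3) over all 6 libraries with no covariate, with Benjamini-Hochberg adjustment and a threshold of 0.05. CPM used TMM-scaled library sizes and TPM the exon lengths in the tables. The fit was run on simulated counts to check the size of its fold changes. These counts held no shifts between libraries such as those of GC-rich genes, so the run does not cover such shifts. Alternatives were RLE and upper quartile scaling, other filters, DESeq2 1.42.0, limma-voom (limma 3.58.1), a replicate block, leaving out each library and, added after the data were seen, a GC correction.

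Members and lists were chosen with earlier results of these data known. Genes named were the 7 lipases, *MYCN*, called genes and the 3 largest fold changes of each list, tested genes within 500 kb of *LIPG*, and the 5 tested genes of at least 5 CPM nearest to its profile. *LRP1*, *LRP8*, *PCSK5*, *GPIHBP1*, *PLCB1*, *ABHD5*, *ABHD6*, *ABHD12*, *PPARG* and the genes next to *LIPG* in size of fall were named after their values were seen. The study describes independent biological replicates for its cell culture experiments, but the labels do not, so p-values measure the spread between these libraries. With 3 libraries in each group, an exact permutation test of a single value could not go below 0.1 and none was used.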

Additional observations from a re-analysis of the deposited data

How the results depend on the processing

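Against 33 genes called higher and 20 lower, RLE scaling gave 13 lower, no filter on low counts 185 and 117, DESeq2 290 and 209, and the GC correction, added after the data were seen, 73 and 48. To look for pairing, the group mean of each gene was subtracted from its log2 CPM, and the deviations left were correlated between groups. These deviations correlated at 0.0603, 0.51 and 0.219 for the same replicate number and between -0.452 and 0.379 for different numbers. Subtracting the group mean itself forces values of both signs, and these are not correlations of whole libraries. With 3 libraries in each group these values cannot settle whether the libraries were paired. The replicate block gave 421 higher and 254 lower. Leaving out single libraries gave 0 to 361 higher and 0 to 331 lower, with the highest counts without EtOH 2. Without EtOH 1 there was 1 in each direction, without EtOH 3 or Tet 2 1 higher and 0 lower, and without Tet 1 or Tet 3 0 in edgeR's test (unadjusted p under 0.05 for 1865 and 2067 genes). Among the related genes (1 higher, 0 lower), no filter, DESeq2 and the replicate block gave 2 higher, leaving out single libraries 0 to 2, and the replicate block 1 lower, *LRP8* (adjusted p = 0.0471). The direction of *LIPE* reversed with RLE scaling (-0.0055), DESeq2 (-0.0010), the GC correction (-0.44), without EtOH 2 (-0.54) and without Tet 3 (-1.30; up to 0.89 without EtOH 1), and that of *MGLL* without EtOH 1 (0.42) and without Tet 2 (0.13; down to -0.62 without Tet 1). Without Tet 3, *ANGPTL4*, *PNPLA6*, *BSCL2*, *MCOLN1* and *NR1H2* also changed sign, and *ABHD5* and *ACAA2* did without EtOH 2 or Tet 3. The cause was not tested. *LPL* and *LIPA* kept their direction in all 14 alternatives, with *LIPA* between -0.59 and -0.37 (adjusted p from 0.0678 to 0.867), and *PNPLA2* kept it in 13. *LIPG* also kept its direction in all 14, which is no support, since it was chosen for its fall in these same libraries. *PNPLA2*, *LIPE* and *MGLL* could not be tested with a minimum of 10 counts in every library. By CPM instead of TPM, *PNPLA2* and *MGLL* changed places in EtOH and no other lipase did in either group. No scaling moved the median log2 fold change of all genes by 0.1. Few counts limit *PNPLA2*, *LIPE*, *MGLL* and *LIPC*.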
